A study of Saccharomyces cerevisiae with 14 samples.

Results

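The transcripts examined here are those of the cytosolic ribosomal protein (RP) genes of budding yeast. A gene was taken as a member when its standard name begins with RPL or RPS followed by a digit, or when it is RPP0, RPP1A, RPP1B, RPP2A or RPP2B. Of the 7122 genes in the table, 137 met this rule, 56 of the small (40S) subunit, 76 of the large (60S) subunit and 5 of the ribosomal stalk. They encode 78 proteins, 19 from a single gene and 59 from a pair of paralogs named A and B.

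The libraries came from strains of the Y258 background, itself derived from S288C, that overexpress (oe) one chaperone from a plasmid selected on medium lacking uracil. These were oe SSC1 (mitochondrial HSP70), oe LHS1 (endoplasmic reticulum HSP70), oe TCP1 (a subunit of the cytosolic T-complex), with 3 libraries each, and oe EGD2 (nascent polypeptide-associated complex), with 2. The labels give mid-exponential cells grown in 2% glucose at 30 °C for every library, while the study's methods describe plasmid induction by 2% galactose and cells past the diauxic shift. The empty vector control was not analysed here, so the comparison for each strain is with the average of the 3 remaining chaperone strains.

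Depth was 10127206 to 20286329 reads per library. The LHS1 transcript had 23647 to 60337 normalized counts in oe LHS1, against 1344 to 2211 elsewhere, and TCP1 had 22042 to 47002 in oe TCP1, against 1726 to 2577 elsewhere. EGD2 had 24039 and 17746 in oe EGD2, against at most 16374 elsewhere. SSC1 had 30045, 82518 and 11336 in the libraries labelled oe SSC1, against 14940 to 32390 in the others, so that replicate 2 alone lay above the other strains. All 4 markers of mating type a and all 4 of mating type alpha were detected, with summed levels per library of 13539 to 26267 for a and 1057 to 1641 for alpha.

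RPs are needed in equal numbers, a single copy of nearly every protein per ribosome, and their genes are among the most actively transcribed of a growing yeast cell. Rap1 binds upstream of most of them and holds Fhl1 and Ifh1, which switch transcription on when nutrients are ample, while the kinases TORC1 and PKA pass on the nutrient signal. After the whole-genome duplication many RP genes stayed as pairs, whose proteins are often the same. Because RP mRNAs fall when growth slows, their level is a common readout of growth state.

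Sequence upstream of the coding start is shown first, since Rap1 is the factor that RP genes share. In the 250 bases before to 50 after the start, the Rap1 motif ACCCNNACA, searched on both strands, was present in 12 of 137 members (8.76%), beside 2.81% of 6009 promoters of the genome. This window was short for RP genes, and a second window, the 300 bases that begin 500 bases before the start, held it in 51 of 137 members (37.2%), beside 3.51% of 6008 promoters. The second window was chosen after the first had been searched. Across both windows 54 members had a match. Matches in the second window lay a median of 335.5 bases before the start and at most 498. The motifs Reb1 (TTACCCG), RRPE (AAAATTTT), PAC (GATGAG) and Abf1 were each in 2.92% to 14.6% of members there, and in 4.34% to 16.1% of all promoters. A match is a string of letters and not a measured binding site.

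The stretches below carry Rap1 matches, in capitals with 10 bases on each side, of members whose levels or paralog ratios are described further on (5′ to 3′ on the coding strand, from R64).
RPL7A (chrVII:366229-366257, - strand): tcatataaacACCCACACAtatctataaa
RPL9A (chrVII:228621-228649, - strand): tttccagaaaTGTTTGGGTttatttttta
RPL22B (chrVI:65159-65187, - strand): ccatgtcaacACCCGTACAtattcagaga
RPL36B (chrXVI:76535-76563, - strand): ctgtattttcACCCGTACAtccacggatg
RPL43B (chrX:608006-608034, + strand): atcctttttaACCCATACAtatcatttag
RPL28 (chrVII:310693-310721, + strand): tacaccagggACCCACACAttaccaaaat
Of the 59 pairs, 10 had a match in both members, 28 in one member and 21 in neither. The partners RPL7B, RPL9B, RPL22A and RPL43A had no match in either window.

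Each of 2 intervals lay between RP genes that are transcribed away from each other, RPL13A and RPS16B on chromosome IV and RPS16A and RPL13B on chromosome XIII, with 634 and 720 bases between the coding starts. Each interval holds a pair of Rap1 matches facing opposite ways, which are in capitals.
RPL13A and RPS16B (chrIV:308133-308224, + strand): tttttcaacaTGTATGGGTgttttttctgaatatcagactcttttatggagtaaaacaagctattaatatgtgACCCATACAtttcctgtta
RPS16A and RPL13B (chrXIII:551520-551639, + strand): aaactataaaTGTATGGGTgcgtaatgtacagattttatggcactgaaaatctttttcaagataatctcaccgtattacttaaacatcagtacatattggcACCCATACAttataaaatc
RPL13A, a 60S protein, had 7926, 6024 and 6151 normalized counts among libraries labelled oe SSC1, 6323, 14305 and 14102 among oe LHS1, 5684 and 4548 among oe EGD2, and 6364, 4821 and 17861 among oe TCP1 libraries. Its neighbour RPS16B, a 40S protein, had 8417, 5390.3 and 5700.4 normalized counts among libraries labelled oe SSC1, 6301, 15799 and 12707 among oe LHS1, 5741 and 4341 among oe EGD2, and 8268, 4735 and 17595 among oe TCP1 libraries. All 4 genes of these intervals were highest in oe TCP1 replicate 3.

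RP genes took 5.14% to 16.6% of all reads. The share was 9.98%, 5.14% and 7.23% among libraries labelled oe SSC1, 7.65%, 13.8% and 13.1% among oe LHS1, 7.01% and 5.76% among oe EGD2 and 9.11%, 6.01% and 16.6% among oe TCP1. Strain means were 7.45% ± 2.43 (SD, n = 3) among libraries labelled oe SSC1, 11.5% ± 3.38 (n = 3) for oe LHS1, 6.38% ± 0.881 (n = 2) for oe EGD2 and 10.6% ± 5.42 (n = 3) for oe TCP1. The ranges of these strains overlapped except that both oe EGD2 libraries lay below every oe LHS1 library. Since the libraries come from bulk cultures, fewer growing cells and less RP mRNA per cell cannot be told apart.

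The members moved together from library to library. Deviations were taken on the scale of log2(normalized count + 1), from each gene's own mean over the 11 libraries. Their median was 0.18, -0.77 and -0.24 among libraries labelled oe SSC1, -0.21, 0.65 and 0.54 among oe LHS1, -0.24 and -0.51 among oe EGD2 and 0.02, -0.48 and 1.05 among oe TCP1. Replicate 3 of oe TCP1 was the highest library for 131 of 137 members, and the library labelled oe SSC1 replicate 2 was the lowest for 94. The median member was 3.60-fold higher in the first of these than in the second.

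**Figure D1:**
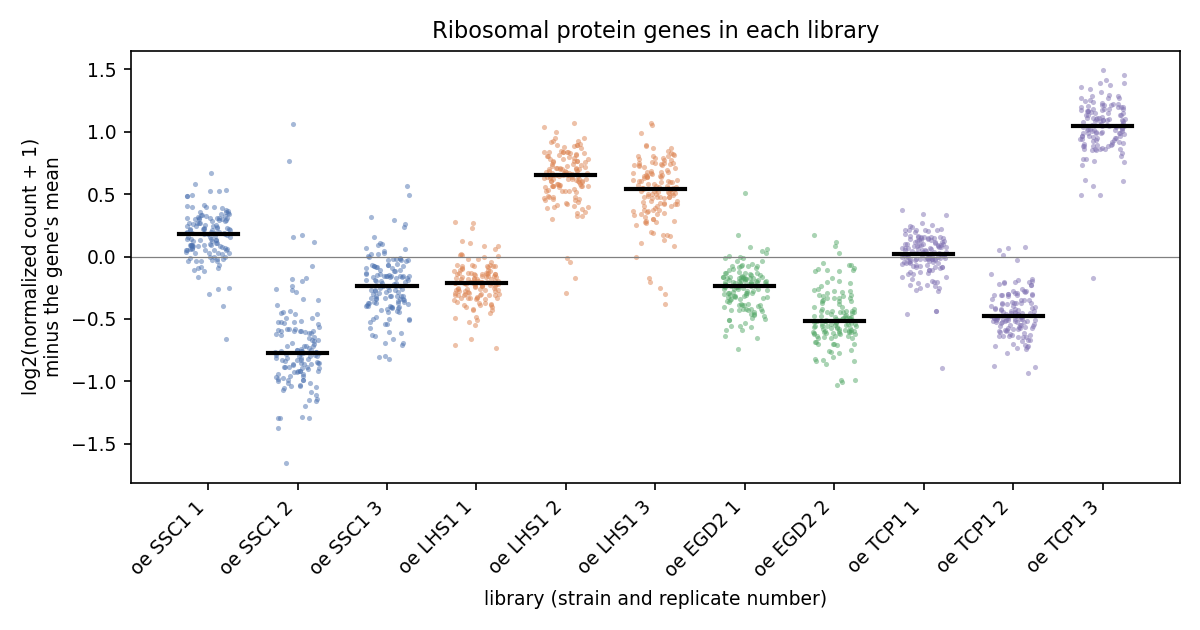
Deviation of each of 137 RP genes from its own mean over 11 libraries, on the log2 scale of the normalized count plus 1 (vertical axis), for each library (horizontal axis). Points are genes, coloured by strain, and black bars are medians, which run from -0.77 in the library labelled oe SSC1 2 to 1.05 in oe TCP1 3.

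Libraries of one strain differed widely. In oe TCP1, 136 of 137 members were higher in replicate 3 than in both other replicates. In oe LHS1, 131 were lower in replicate 1 than in replicates 2 and 3. The SD of log2 over the 11 libraries had a median of 0.58 among members and 0.44 among all 6592 tested genes, and it ran from 0.15 (RPL15B) to 0.87 (RPS26B).

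Medians were set side by side for the subunit, intron and promoter classes. In oe TCP1 replicate 3 the median was 1.08 for the 56 genes of the 40S subunit, 1.04 for the 76 of the 60S subunit and 0.80 for the 5 stalk genes. In the library labelled oe SSC1 replicate 2 the values were -0.78, -0.75 and -0.88 in the same order. The stalk genes stood furthest from the others in the library labelled oe SSC1 replicate 3, at -0.60, beside -0.23 for the 40S and -0.21 for the 60S subunit. The 89 members with an intron had 1.05 and -0.75 in those libraries, and the 48 without one had 1.04 and -0.82. The 54 members with a Rap1 match had 1.08 and -0.76, and the 83 without had 1.01 and -0.77. These groups were described and not tested.

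The stalk is the lateral arm of the 60S subunit that recruits translation factors, with RPP0 as its base and the acidic proteins RPP1A, RPP1B, RPP2A and RPP2B as its arms. RPP0 had 20625, 9281 and 10315 normalized counts among libraries labelled oe SSC1, 13142, 24932 and 24628 among oe LHS1, 13967 and 11583 among oe EGD2, and 17038, 12314 and 26132 among oe TCP1 libraries. RPP1A had 13759, 5715 and 7163 normalized counts among libraries labelled oe SSC1, 9906, 19603 and 14519.8 among oe LHS1, 11324 and 8091 among oe EGD2, and 11713, 8527 and 19169 among oe TCP1 libraries, and RPP2B had 11912, 5540.0 and 7379.7 normalized counts among libraries labelled oe SSC1, 9102, 19136 and 11852 among oe LHS1, 11060.2 and 7833 among oe EGD2, and 12012, 9126 and 17843 among oe TCP1 libraries. RPP0 and RPP1A were highest in replicates 2 and 3 of oe LHS1 and in replicate 3 of oe TCP1. RPP2B was highest in oe LHS1 replicate 2 and oe TCP1 replicate 3, while in oe LHS1 replicate 3 it was below oe TCP1 replicate 1 and the library labelled oe SSC1 replicate 1. RPP1B lay between 4907 and 18899.8 normalized counts and RPP2A between 5836 and 20427 over the 11 libraries.

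Single-copy genes of known role were also highest in oe TCP1 replicate 3, but the order of the lower libraries differed between them. RPL3, which lies near the peptidyl transferase centre, had 41786, 35533 and 53259.7 normalized counts among libraries labelled oe SSC1, 31631, 76461 and 72906 among oe LHS1, 35191 and 52861 among oe EGD2, and 36394, 52643 and 96847 among oe TCP1 libraries. RPL10, which joins the 60S subunit late in the cytoplasm, had 12839, 7652 and 13292 normalized counts among libraries labelled oe SSC1, 10925, 17872 and 19218 among oe LHS1, 10985 and 11058 among oe EGD2, and 12309, 11830.0 and 29433 among oe TCP1 libraries. RPL5, which binds 5S rRNA together with RPL11, had 21578, 15942 and 20878 normalized counts among libraries labelled oe SSC1, 17351, 43264 and 43575 among oe LHS1, 17222 and 19529 among oe EGD2, and 20352, 19557 and 53653 among oe TCP1 libraries. RPL3 was above the median of the members in the library labelled oe SSC1 replicate 3, in oe EGD2 replicate 2 and in oe TCP1 replicate 2, by 0.33, 0.60 and 0.55, and it was lowest in oe LHS1 replicate 1. RPL25, at the exit of the polypeptide tunnel, lay between 5595 and 27725 normalized counts, and RPL30, which represses splicing of its own transcript, between 7089 and 32915. The paralogs of RPL11 lay between 2087 and 7964 for RPL11A and between 2186 and 6571 for RPL11B.

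A few members departed from the common pattern. The SD of a member's departure from the library median had a median of 0.17, and it exceeded 0.3 in 18 of 137 members. The closest followers were RPL21B (0.06) and RPL23B (0.06), and the largest departures were those of RPL15B (0.68), RPL39 (0.68), RPL43A (0.62) and RPL41B (0.55). RPL39 and RPL43A had few reads, at most 59 and 43 normalized counts in a library. RPL41B had 7101, 1419.5 and 3374 normalized counts among libraries labelled oe SSC1, 5227, 5909 and 3758 among oe LHS1, 6343 and 3874 among oe EGD2, and 4910.1, 4518 and 6629.8 among oe TCP1 libraries. The RPL41 genes encode a protein of 25 residues, the smallest of the members, and each had 100 uniquely matching positions.

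RPL15B was flat where its partner was not. RPL15A, a core 60S protein, had 24336, 21721 and 20575 normalized counts among libraries labelled oe SSC1, 18208, 44051 and 44575 among oe LHS1, 20654 and 18717 among oe EGD2, and 22544, 18973 and 55915 among oe TCP1 libraries. RPL15B had 1213, 1246 and 1165 normalized counts among libraries labelled oe SSC1, 1194, 905 and 959.7 among oe LHS1, 1113 and 1132 among oe EGD2, and 1177, 1159 and 986 among oe TCP1 libraries. The 3 libraries with the highest RPL15A were the 3 with the lowest RPL15B, oe TCP1 replicate 3 and replicates 2 and 3 of oe LHS1. The proteins differ in 2 of 204 residues, and both genes had 597 uniquely matching positions. The sequences from 250 bases before to 50 after each coding start are given because this pair has the most variable ratio (R64, 5′ to 3′ on the coding strand, no Rap1 match). RPL15A held 2 matches of the RRPE letters and RPL15B 1 match of the Reb1 letters there.
RPL15A (chrXII:202541-202840, - strand): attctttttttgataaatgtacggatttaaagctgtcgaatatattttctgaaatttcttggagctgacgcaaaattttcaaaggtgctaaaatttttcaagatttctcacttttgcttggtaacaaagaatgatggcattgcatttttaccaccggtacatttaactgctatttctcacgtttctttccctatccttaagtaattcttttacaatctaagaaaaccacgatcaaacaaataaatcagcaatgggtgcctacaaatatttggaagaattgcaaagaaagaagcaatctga
RPL15B (chrXIII:510299-510598, - strand): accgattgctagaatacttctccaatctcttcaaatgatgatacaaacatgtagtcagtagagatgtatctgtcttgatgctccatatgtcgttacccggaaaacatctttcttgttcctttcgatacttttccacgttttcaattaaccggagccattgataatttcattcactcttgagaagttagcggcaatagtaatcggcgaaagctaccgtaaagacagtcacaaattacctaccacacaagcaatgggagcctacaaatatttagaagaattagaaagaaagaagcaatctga

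The members with the largest SD of log2 were RPS26B, RPL12A, RPL31B and RPS22A, at 0.87, 0.82, 0.82 and 0.79. RPS26B, a 40S protein at the mRNA exit, had 8846, 4043 and 3954 normalized counts among libraries labelled oe SSC1, 5887, 13807 and 14293 among oe LHS1, 5948 and 3382 among oe EGD2, and 7212, 3767 and 18933 among oe TCP1 libraries. RPL12A, a protein of the stalk base, had 2299, 1110.3 and 1273 normalized counts among libraries labelled oe SSC1, 1589.9, 4124 and 3446 among oe LHS1, 1474 and 1103 among oe EGD2, and 2195, 1184 and 5528 among oe TCP1 libraries. RPL31B, which lies near the tunnel exit, had 6590.2, 4431 and 3056 normalized counts among libraries labelled oe SSC1, 4679, 10452 and 11339.7 among oe LHS1, 4539.7 and 2699 among oe EGD2, and 4716, 2929 and 13829 among oe TCP1 libraries. In each of these, replicates 2 and 3 of oe LHS1 and replicate 3 of oe TCP1 were the 3 highest libraries. RPS22A, of the 40S body, had 9852, 4602 and 4728 normalized counts among libraries labelled oe SSC1, 6842, 14607 and 13673 among oe LHS1, 6349 and 3906 among oe EGD2, and 9168, 4520.4 and 19586 among oe TCP1 libraries. The smallest SDs were 0.15 (RPL15B), 0.28 (RPL36B), 0.31 (RPL4A) and 0.37 (RPL22A). RPL4A, with a long loop into the polypeptide tunnel, lay between 7358 and 14177 normalized counts, and 2 of the 4 had few reads, with RPL36B at 60.7 to 112, with a median of 78.6 and RPL22A at 72.2 to 186, with a median of 99.4.

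Levels of different genes were compared as normalized counts per 1000 uniquely matching positions, because 50-base reads that fit more than one place were not counted. Positions were those at which a 50-base read overlaps the spliced coding exons, so reads that reach into the flanking bases count. Untranslated regions were otherwise left out. RPL41A thus had 127 positions for 78 coding bases. Of the members, 57 were wholly unique and 12 had under 50% unique positions, among them RPS6A and RPS6B with 37.2% each. RPS31, a fusion of ubiquitin with a 40S protein, was highest at 72164 ± 27947 (mean ± SD over 11 libraries), followed by RPL41A at 59154 ± 26819, RPL41B at 48241 ± 16711 and RPL30 at 47938 ± 19921. The SDs of these 4 neighbours in the order were larger than the gaps between them. RPL40A and RPL40B, the ubiquitin fusions of the 60S subunit, were at 25478 ± 9589 and 23086 ± 12231.

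The lowest were RPL43A at 80.1 ± 29.5, RPL39 at 147 ± 65.2, RPL36B at 252 ± 53.2 and RPL22A at 255 ± 74.7, followed by RPL33A, RPL15B, RPL28 and RPL7B. Each of these 8 except RPL15B has, in the table, a row next to it in systematic name that lies on the other strand by its name and is not in the RefSeq reference. Such rows exist for 26 members. Reads were counted without strand, and reads shared by overlapping genes are normally left uncounted, so that low values of these members are uncertain. The longest open reading frame of at least 75 codons on the other strand covered 99.3% of the coding bases of RPL43A, 96.2% of RPL39, 93.7% of RPL36B and 96.7% of RPL22A. The same measure gave 88.0% for RPL33A, 89.1% for RPL28 and 49.0% for RPL7B. Whether the rows overlap the members was not tested, since their coordinates were not used here. RPL28, an essential single-copy protein, was at 2086 ± 818, beside a median of 30904 for the 19 single-copy members.

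Summed over both paralogs, the 59 pairs had a median level of 35515, beside 30904 for the 19 single-copy genes, while a single member of a pair had a median of 17783. The lowest totals were those of RPL39, RPL28 and RPL22, which hold members with the uncertainty just given. The highest was RPL41, at 107395. These are levels of mRNA per length and not of protein.

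Paralogs were compared by the log2 ratio of A to B within a library, which does not depend on the scaling of the library. Of the 59 pairs, 21 encode the same protein, 14 differ in 1 residue, 14 in 2 to 5 and 10 in more. Per uniquely matching position, A was higher on average in 33 pairs and B in 26. The mean ratio was within 2-fold in 43 pairs, between 2-fold and 4-fold in 6 and beyond 4-fold in 10. In 41 pairs the sign of the ratio of counts was the same in all 11 libraries.

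**Figure D2:**
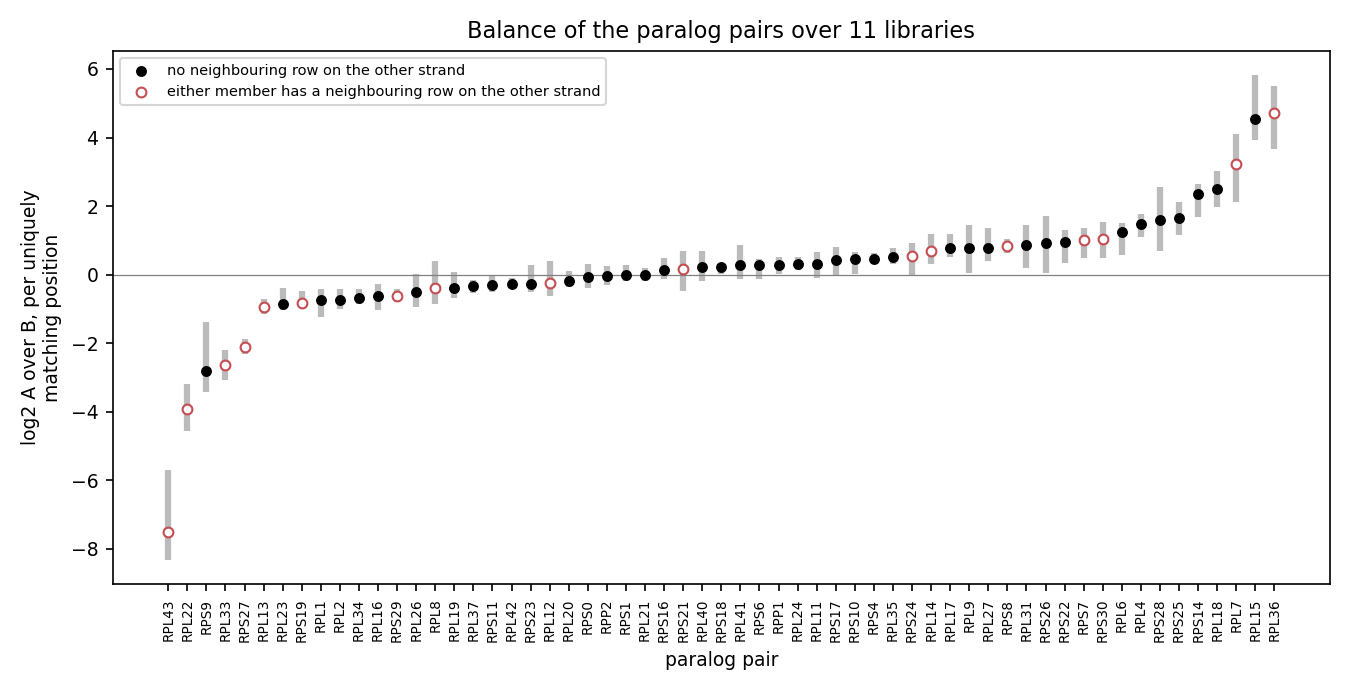
Mean log2 ratio of A to B per uniquely matching position (vertical axis) for 59 RP paralog pairs in order of the ratio (horizontal axis), with grey bars from the lowest to the highest of 11 libraries. Open symbols mark pairs with a member beside a row on the other strand that is not in the reference. The means run from -7.49 (RPL43) to 4.71 (RPL36), and 43 pairs lie within 2-fold.

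The most unequal pairs were RPL43, RPL36, RPL15, RPL22 and RPL7, with 180.1-fold, 26.2-fold, 23.4-fold, 15.0-fold and 9.32-fold between the members. RPL43B, RPL36A, RPL15A, RPL22B and RPL7A were the higher members. In all of these but RPL15 the lower member is one of those that a row on the other strand may overlap. Without the pairs that hold such a member, 42 pairs were left, 4 of them beyond 4-fold and 34 within 2-fold. Those 4 were RPL15, RPS9, RPL18 and RPS14. RPS14A and RPS14B, proteins of the 40S platform, were at 30393 ± 11674 and 5884 ± 2228 per 1000 positions. RPS9B and RPS9A, of the 40S body, were at 22496 ± 10939 and 3209 ± 1644.

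The log2 ratio of an RP pair spanned a median of 0.79 between its lowest and its highest library. The SD of the log2 ratio had a median of 0.25 over the 59 RP pairs. It was 0.59 over 412 other pairs of reciprocal best protein matches, which was described and not tested. Those other pairs needed only 40% protein identity and a mean of 5 normalized counts in each member. They were not matched to the RP pairs in level or identity, so the medians are not of like pairs. In 52 of 59 RP pairs the SD of the ratio was below that of either member alone. The steadiest pairs were RPS4, RPS18, RPL42, RPL37 and RPL34, with SDs of the ratio of 0.09, 0.09, 0.10, 0.10 and 0.12. For RPS4, whose proteins are the same, the log2 ratio was 0.43, 0.50 and 0.37 among libraries labelled oe SSC1, 0.33, 0.64 and 0.53 among oe LHS1, 0.49 and 0.46 among oe EGD2, and 0.44, 0.45 and 0.56 among oe TCP1 libraries. RPL20A and RPL20B, also the same protein, had 5244 to 17374 and 5588 to 19255 normalized counts over the libraries.

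The least steady ratios were those of RPL15, RPL43, RPL7, RPS9 and RPS28, with SDs of 0.72, 0.68, 0.58, 0.58 and 0.57. The log2 ratio of RPL15A to RPL15B was 4.33, 4.12 and 4.14 among libraries labelled oe SSC1, 3.93, 5.60 and 5.54 among oe LHS1, 4.21 and 4.05 among oe EGD2, and 4.26, 4.03 and 5.82 among oe TCP1 libraries. It stood between 5.54 and 5.82 in 3 libraries and between 3.93 and 4.33 in the other 8. The log2 ratio of RPS9A to RPS9B was -3.41, -1.38 and -2.70 among libraries labelled oe SSC1, -3.26, -2.69 and -2.89 among oe LHS1, -3.17 and -2.28 among oe EGD2, and -3.34, -2.83 and -2.71 among oe TCP1 libraries. The library labelled oe SSC1 replicate 2 stood apart there, with RPS9A at 1944 and RPS9B at 5059.7 normalized counts.

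For RPS28A to RPS28B, proteins of the 40S head, the ratio was 2.57, 1.25 and 0.70 among libraries labelled oe SSC1, 2.17, 1.38 and 1.90 among oe LHS1, 2.23 and 1.21 among oe EGD2, and 1.76, 1.40 and 1.05 among oe TCP1 libraries. Both members of RPS28 differ in 1 residue. RPL7A to RPL7B, 60S proteins that differ in 5 residues, had 3.67, 2.81 and 2.12 among libraries labelled oe SSC1, 3.22, 3.76 and 3.60 among oe LHS1, 3.51 and 2.56 among oe EGD2, and 4.09, 2.90 and 3.18 among oe TCP1 libraries. RPL43A, with 12.5 to 43.4, with a median of 25.2 normalized counts, was near the floor of what its ratio can show.

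Ratios of other pairs with a known role also varied. For RPS26A to RPS26B the ratio was 0.91, 0.39 and 1.47 among libraries labelled oe SSC1, 1.07, 0.37 and 0.41 among oe LHS1, 1.11 and 1.70 among oe EGD2, and 0.94, 1.57 and 0.06 among oe TCP1 libraries. RPS26B nearly equalled RPS26A in oe TCP1 replicate 3 and was lowest against it in oe EGD2 replicate 2. RPL31A to RPL31B had ratios of 0.19 to 1.44, with the library labelled oe SSC1 replicate 2 and replicates 2 and 3 of oe LHS1 at the low end. RPL22A and RPL22B differ in 19 residues, and their ratio was -4.00, -3.75 and -3.77 among libraries labelled oe SSC1, -3.57, -4.56 and -4.50 among oe LHS1, -4.12 and -3.20 among oe EGD2, and -3.98, -3.56 and -4.07 among oe TCP1 libraries.

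**Figure D3:**
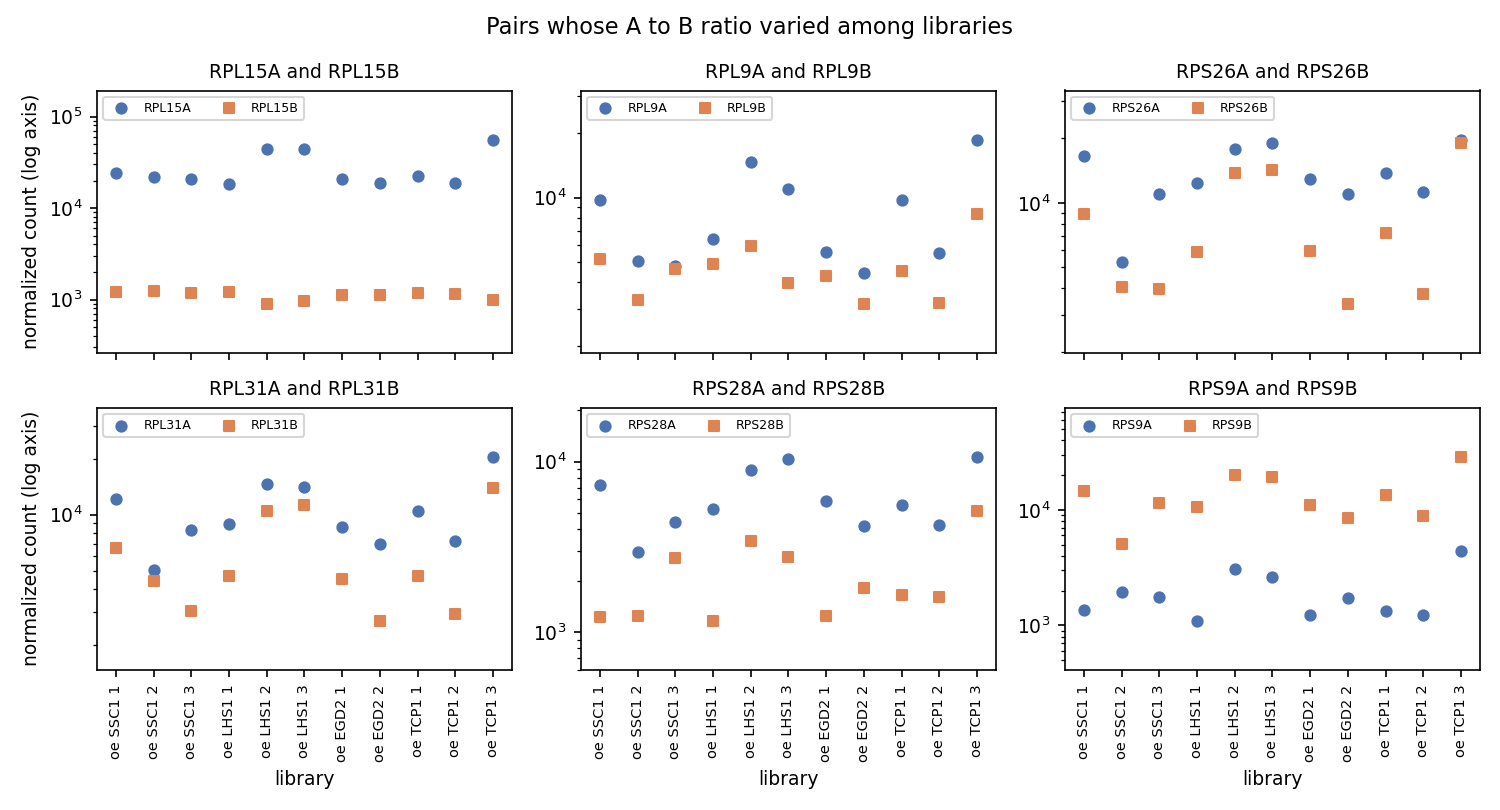
Normalized counts on a log axis (vertical) of both members of 6 RP pairs in each of 11 libraries (horizontal axis), with A as circles and B as squares. RPL15B stays between 905 and 1246 while RPL15A lies between 18208 and 55915, and RPS26B approaches RPS26A in oe TCP1 3.

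The comparison among strains asked whether RP mRNAs of one labelled strain lay away from those of the other chaperone strains. SSC1 itself was above the other strains in only part of the libraries labelled oe SSC1. EGD2 in the lower oe EGD2 library was little above its highest level elsewhere. No member passed the test in any strain. Medians over the members were -0.33 among libraries labelled oe SSC1, 0.47 among oe LHS1, -0.45 among oe EGD2 and 0.31 among oe TCP1, on the log2 scale against the average of the 3 remaining strains. Median standard errors of single members were 0.45 in oe EGD2 and 0.39 in each of the other strains. Over all 6592 genes tested, the medians were 0.01 for the libraries labelled oe SSC1, 0.01 for oe LHS1, -0.01 for oe EGD2 and 0.00 for oe TCP1.

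By limma on log2(normalized count + 1), fitted over all tested genes with Benjamini-Hochberg adjustment, 0 of 137 members were called in the libraries labelled oe SSC1, beside 0.0152% of all genes. The count was 0 of 137 in oe LHS1, beside 0.0152% of all genes, 0 in oe EGD2, beside 0%, and 0 in oe TCP1, beside 0.0152%. The F test among strains called 0 members, beside 0.0455% of all genes. After adjustment edgeR and DESeq2 also called 0 members in every strain and among strains, beside at most 0.0455% and 0.0607% of all genes. In DESeq2 the test among strains was a likelihood ratio test. The smallest adjusted p of a member was 1.00 for the libraries labelled oe SSC1, 0.68 for oe LHS1, 0.71 for oe EGD2 and 1.00 for oe TCP1. The share called among all genes was so low that these counts of 0 do not set the members apart from other genes.

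At an unadjusted p under 0.05, limma, edgeR and DESeq2 each gave 0 members in every strain and in the test among strains. Of all genes, limma gave 0.895% for libraries labelled oe SSC1, 3.69% for oe LHS1, 2.94% for oe EGD2, 0.364% for oe TCP1 and 0.561% by the F test. With edgeR the shares of all genes were 1.82%, 5.17%, 3.52%, 0.485% and 2.08% in the same order. With DESeq2 they were 2.21%, 7.55%, 7.66%, 1.14% and 4.29%, the last by the likelihood ratio test. Since the members move together, the count of 0 beside these shares is a description.

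The values leaned one way in each strain without passing the test. They were above 0 for 7 of 137 members among libraries labelled oe SSC1, for 134 among oe LHS1, for 2 among oe EGD2 and for 136 among oe TCP1. Without oe TCP1 replicate 3 the median of oe TCP1 was -0.11, and with oe TCP1 replicate 2 left out it was 0.66. The members share libraries and move together, so the counts are not those of independent genes.

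The members at the ends were few and are given as values. In the libraries labelled oe SSC1, RPL39 had a difference of 0.31 ± 0.43 (SE) and RPS20, a 40S head protein, -0.64 ± 0.42. In oe LHS1, RPS26B had 0.88 ± 0.51 and RPL15B -0.18 ± 0.15. In oe EGD2, RPL41B had 0.18 ± 0.49 and RPL9A, a 60S protein, -0.78 ± 0.48. In oe TCP1, RPL9A had 0.57 ± 0.42 and RPL15B -0.01 ± 0.15, and the sign of RPL15B turned under 4 other settings and without oe LHS1 replicate 1 (0.030) or oe TCP1 replicate 3 (0.072). RPL9A had 9699.7, 5059.7 and 4790.4 normalized counts among libraries labelled oe SSC1, 6400.4, 14709 and 10973 among oe LHS1, 5568 and 4431 among oe EGD2, and 9795, 5517 and 18704 among oe TCP1 libraries. Its libraries overlapped between all strains except that both of oe EGD2 were below those of oe LHS1.

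**Figure D4:**
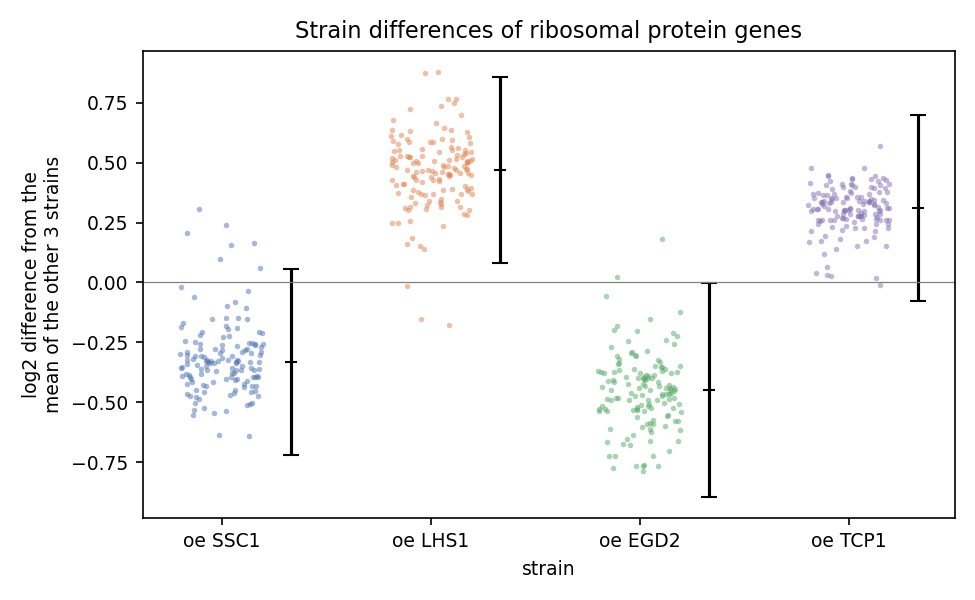
Log2 difference of each of 137 RP genes in a strain from the mean of the other 3 strains (vertical axis), for the 4 strains (horizontal axis). Points are genes. The black bar beside them is the median over genes, and its whiskers are the median of the standard errors of single genes. These are -0.33 with 0.39 among libraries labelled oe SSC1 and 0.47 with 0.39 among oe LHS1. They are -0.45 with 0.45 among oe EGD2 and 0.31 with 0.39 among oe TCP1.

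Paralog ratios also gave no call among strains. By limma over 471 pairs of the genome, 0 of 59 RP ratios were called in the libraries labelled oe SSC1, beside 0.212% of all pairs. For each of the other strains the count was 0, beside 0% of all pairs, and it was 0 in the F test, beside 0.212%. At an unadjusted p under 0.05 there was 1 ratio in the libraries labelled oe SSC1 (RPL18), beside 1.91% of all pairs, and 1 in oe EGD2 (RPS22), beside 2.97%. There were 0 in oe LHS1, beside 2.97%, 0 in oe TCP1, beside 0.212%, and 0 in the F test, beside 0.849%. The RPL18 ratio was 2.09, 1.98 and 2.16 in the libraries labelled oe SSC1, against 2.11 to 3.04 in the other strains, a difference of -0.56 with an adjusted p of 0.99 by limma. The RPS22 ratio was 0.64 and 0.33 in oe EGD2, against 0.82 or more in the others, a difference of -0.57 with an adjusted p of 0.73.

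Other genes of the translation machinery were set beside the members. By limma 0 of 31 tested translation factors, 0 of 31 ribosome biogenesis genes, 0 of 12 RP chaperones and importins, 0 of 21 RP regulators and 0 of 67 mitochondrial RP genes were called in any strain. At an unadjusted p under 0.05 in at least 1 strain, limma gave 1, 0, 1, 1 and 1 genes of these lists in that order, edgeR 1, 0, 1, 2 and 1, and DESeq2 2, 16, 5, 3 and 2, beside 7.16%, 9.59% and 14.6% of all genes with limma, edgeR and DESeq2. Neither edgeR nor DESeq2 called any after adjustment. The 20 environmental stress genes also gave 0 calls by all 3 tools. At an unadjusted p under 0.05 in at least 1 strain, they gave 2 with limma, 3 with edgeR and 7 with DESeq2.

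Ribosome biogenesis genes varied more than the members, with a median SD of log2 of 0.82, and mitochondrial RP genes less, with 0.30. Their medians in oe TCP1 replicate 3 were 1.57 and 0.34, beside 1.05 for the members. In the library labelled oe SSC1 replicate 2 they were 0.07 and -0.19, beside -0.77. The members and the biogenesis genes thus lay 0.85 apart there, the largest gap of the 11 libraries. NOP1, the rRNA methyltransferase of the nucleolus, had 7904, 5949 and 3311 normalized counts among libraries labelled oe SSC1, 6828, 13479 and 11056 among oe LHS1, 6342 and 2515 among oe EGD2, and 6699.9, 3816 and 17324 among oe TCP1 libraries. NSR1, the nucleolin of yeast, had 1117.7 in oe EGD2 replicate 2 and 10971 in oe TCP1 replicate 3. EFB1, the exchange factor of elongation factor 1, lay between 8940.4 and 24383.

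**Figure D5:**
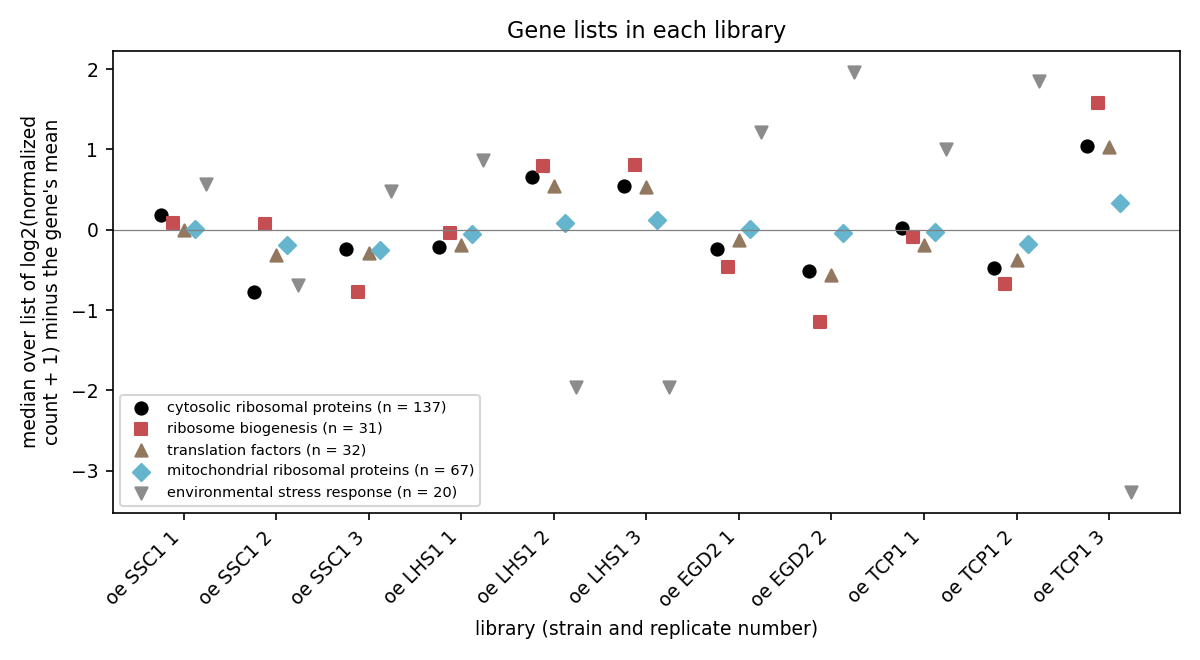
Median deviation from each gene's mean, on the log2 scale of the normalized count plus 1 (vertical axis), of 5 gene lists in each of 11 libraries (horizontal axis). RP genes (black circles) lie near translation factors in most libraries, but at -0.77 beside -0.31 in the library labelled oe SSC1 2. Ribosome biogenesis genes range wider, mitochondrial RP genes stay between -0.25 and 0.34, and stress genes reach -3.26 in oe TCP1 3.

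Regulators of RP genes varied less than their targets, with a median SD of log2 of 0.39 over 21 genes and library medians from -0.24 to 0.26. IFH1, the coactivator at RP promoters, had 2144, 3747 and 1475 normalized counts among libraries labelled oe SSC1, 2335, 2028 and 2355 among oe LHS1, 2002 and 1302 among oe EGD2, and 2482, 1565 and 3007 among oe TCP1 libraries. FHL1, its partner, lay between 819 and 2124 normalized counts. Both were highest in the library labelled oe SSC1 replicate 2, the lowest library for RP genes. The median of all 21 regulators was also highest there, at 0.26. RRB1, the chaperone of Rpl3, had 6372 in oe TCP1 replicate 3 and 1151 in oe EGD2 replicate 2, and SQT1, the chaperone of Rpl10, 3857 and 1021.

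Stress genes ran against the members in most libraries. The summed level of the 20 stress genes was 275162 to 437895 among libraries labelled oe SSC1, 115024 to 426989.8 among oe LHS1, 471916 and 734308 among oe EGD2 and 43748 to 650232 among oe TCP1. HSP12, a small membrane heat shock protein, had 23544, 3768 and 33497 normalized counts among libraries labelled oe SSC1, 19097, 1225 and 1155 among oe LHS1, 36779 and 69217 among oe EGD2, and 34242, 70965 and 1233 among oe TCP1 libraries. CTT1, cytosolic catalase, had 13502, 1086 and 6456 normalized counts among libraries labelled oe SSC1, 14778, 676 and 645 among oe LHS1, 14007 and 17575 among oe EGD2, and 14141, 19133 and 395 among oe TCP1 libraries. Both were lowest in replicates 2 and 3 of oe LHS1 and replicate 3 of oe TCP1, the libraries in which RP genes were highest. In the library labelled oe SSC1 replicate 2 both medians were below 0, at -0.69 for stress genes and -0.77 for RP genes. Both were above 0 in the library labelled oe SSC1 replicate 1, at 0.57 and 0.18, and in oe TCP1 replicate 1, at 1.01 and 0.02. The part of these genes in the differences among RP libraries was not tested.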

How the data were processed

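Per the authors' methods, 50-base single-end reads were mapped to sacCer3 by STAR 2.3.0e. Ensembl genes were then counted by htseq-count 0.6.0 at an alignment quality of 10 or more, ignoring strand. Outlier replicates were dropped after PCA of rlog values. The authors deposited a signal per gene, namely counts divided by DESeq2 size factors (version not given in the sources used here). Whole reads were recovered from it, with 100% of values within 0.01 of a whole number. The submitters' processing notes name the same tools and build.

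The main test was limma 3.58.1 with a mean-variance trend, run in R 4.3.3 on log2(normalized count + 1). It covered 6592 genes whose mean reached 5. All 11 libraries of the 4 strains shared one fit, and a Benjamini-Hochberg adjusted p under 0.05 was called. Paralog ratios were tested likewise over 471 pairs. The RP pairs were taken by their A and B names. The 412 others were reciprocal best matches by blastp 2.17.0+ (at least 40% identity over 70% of the length). The methods describe biological triplicates with outliers dropped. The p-values measure the spread between the cultures analysed here, 2 of them in oe EGD2, which may be smaller than among all cultures grown. Alternatives used edgeR 4.0.16 and DESeq2 1.42.0 on recovered reads, other scalings, pseudocounts and filters, a replicate block and each library left out. The tests were tried on simulated data. Sequences and coordinates come from RefSeq R64, the assembly of sacCer3, in which 6045 of 7122 systematic names were found.

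Genes were named by a fixed rule: in each strain the called members or, without any, the highest and lowest difference, the largest and smallest SDs and levels, the most and least variable and the most unequal pairs, and members of known role. Departures, list genes and pairs given beyond it (RPL13, RPL18, RPS16, RPS22) were chosen after their values were seen. The members and lists were chosen with earlier results of these data known. In the table, 4 lines were emptied and are not reported here.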

Additional observations from a re-analysis of the deposited data

How the results depend on the processing

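The count of called members was 0 in each strain and in the test among strains under all 21 alternatives for genes. The count of called paralog ratios was 0 under all 17 alternatives for pairs. No count moved when a library was left out (0 to 0), and a lone oe EGD2 library was then assumed to vary like the other strains. At an unadjusted p under 0.05, limma gave 32 members in oe LHS1 without oe TCP1 replicate 3 (23.4%, beside 18.6% of all genes). Without oe LHS1 replicate 1 it gave 12 there (8.76%, beside 12.3%). Without the library labelled oe SSC1 replicate 1 it gave 3 for that label (2.19%, beside 3.125%). Without oe TCP1 replicate 2 it gave 1 in oe EGD2 (0.73%, beside 10.4%) and 1 in oe TCP1 (0.73%, beside 2.03%). Leaving out 1 library at a time, the median difference of the members ranged from -0.56 to -0.10 in the libraries labelled oe SSC1, 0.31 to 0.74 in oe LHS1, -0.60 to -0.31 in oe EGD2 and -0.11 to 0.66 in oe TCP1. The share of reads in RP genes averaged 9.22% over libraries, and 8.48% to 9.62% with 1 library left out.

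Single members close to 0 changed sign. RPL15B in oe TCP1 was 0.0039 under TMM, 0.0044 under DESeq2, 0.0102 with size factors computed without RP genes and 0.0067 with the replicate block, and -0.056 to 0.072 without 1 library. RPL39 in the libraries labelled oe SSC1 ranged from -0.12 to 0.55 and RPL41B in oe EGD2 from -0.17 to 0.54 when 1 library was left out. The cause was not tested. The other scalings moved the median of all genes by at most 0.09.

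Whether the replicate number pairs the libraries was not tested, since correlations between unlike numbers are not given here. Deviations of the same number in different strains correlated above 0.1 in 8 of 15 pairs of libraries, from -0.58 to 0.64. Replicate 1 of oe EGD2 had 0.53 with replicate 1 labelled oe SSC1 and -0.19 with replicate 1 of oe LHS1. With the replicate block 0 members and 0 paralog ratios were called, as without it.

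Without the pairs that hold a member beside a row on the other strand, chosen after seeing the data, B was the higher paralog in 40.5% of pairs, beside 44.1% of all 59. The values of RPL43A and RPL39 rest on few reads, so their counting error is large, and the cause of their low counts was not tested.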
